A study of Homo sapiens with 12 samples.

Results

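The genes described are 7 markers used to recognise prostate stem-like cells or to target the prostate epithelial surface: CD44, PROM1, ALDH1A1, ALDH1A3, EPCAM, PSCA and FOLH1. They were chosen by symbol, and each was found once among the 58302 genes of the deposited expression table. RNA sequencing of total RNA had been used to compare a benign prostate cell line with PCa cell lines. BPH-1 is the benign line, DU145 and PC3 are PCa lines, and 4 libraries of each were analysed. All 3 are established lines, each a single line with a wild-type genotype label, grown in Dulbecco's modified Eagle's medium with 10% fetal bovine serum and antibiotics, and none was labelled as treated or transfected. Nothing in the labels tells whether the 4 libraries of a line came from separate cultures, so p-values measure only the spread between these libraries, which may be technical. With BPH-1 as the only benign line, a difference of a PCa line from it cannot be told apart from a difference between benign and cancer cells.

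CD44 is a receptor for the matrix sugar hyaluronan, PROM1 (CD133) is a membrane protein of cell protrusions, and ALDH1A1 and ALDH1A3 oxidise retinal to retinoic acid. High CD44, CD133 or aldehyde dehydrogenase activity is widely used to sort stem-like cells from epithelial tumours. EPCAM is an adhesion molecule of epithelial cells, PSCA is a lipid-anchored surface protein of the LY6 family, and FOLH1 encodes PSMA, the glutamate carboxypeptidase to which prostate imaging agents are directed.

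Library depth, recovered from the steps between low values, ranged from 12950665 to 16309560 reads (median 15341001). Levels are given in FPKM, reads scaled by gene length and by this depth, and n is 4 libraries for each mean and SD. The depth is the divisor behind the values. Reads recovered over all genes summed to more in every library, as 16136058 against 15419116 in BPH-1 replicate 1. A gene was tested with limma on log2(FPKM + 1) where it reached 10 reads in at least 4 libraries of the lines compared, and it was called at a Benjamini-Hochberg adjusted p under 0.05 over all genes tested. Fold changes on this scale understate the change of low genes, so ratios of mean FPKM are given beside them. Summed FPKM was lower in BPH-1 (243707 to 249733) than in DU145 and PC3 (289756 to 306698). The median log2 fold change of all genes for PC3 against BPH-1 was -0.13 as deposited, -0.28 after rescaling to the same summed FPKM and 0.10 after upper-quartile scaling, and 40.2%, 30.3% and 55.2% of the calls were then higher in PC3. For DU145 against BPH-1 these medians were -0.03, -0.16 and 0.13, with 48.4%, 38.6% and 57.2% of the calls higher in DU145.

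The epithelial label was checked first. The 6 epithelial markers summed to 272 to 376 FPKM in BPH-1, 84.6 to 163 in DU145 and 220 to 367 in PC3, and none was at 0 throughout a line. The keratins KRT8, KRT18 and KRT19 were present in all lines, with means of 31.1, 19.7 and 23.0 FPKM for KRT8 in BPH-1, DU145 and PC3. The other markers were much lower in the PCa lines than in BPH-1. In the same order KRT5 had 147, 0.216 and 0.0118 FPKM, with 0 to 4 reads in PC3 libraries. CDH1 had 28.4, 0.180 and 0.786 FPKM, and EPCAM 60.8, 0.376 and 9.10 FPKM. The luminal marker KLK3, which encodes prostate-specific antigen, was at 0 reads in all 12 libraries. The 4 leukocyte markers summed to 1.94 to 2.42 FPKM in BPH-1, at most 1.77 in DU145 and at most 0.200 in PC3. The T cell marker CD3E was at 0 throughout. PTPRC was not: it had 225 to 295 reads in BPH-1 libraries (mean 1.35 FPKM), 0 to 275 in DU145 and 0 in PC3. The 3 endothelial markers summed to at most 2.28 FPKM and the 4 fibroblast markers to at most 3.84 FPKM, with the highest library of each in PC3. Their part in the results below was not tested, and in such bulk samples fewer cells of a type and less RNA per cell cannot be told apart.

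Promoter sequence was available for 4 of the 7 genes (CD44, PROM1, ALDH1A1 and ALDH1A3; EPCAM, PSCA and FOLH1 had no entry). The 250 bases before the RefSeq start of 3 of them are shown. ALDH1A3 and ALDH1A1 make the same product from windows that differ widely in CpG content, and CD44 lies between them. These starts are not those of the gene spans given below, and all 3 windows lie inside the spans. Sequences are from RefSeq on GRCh38.p14 and run 5′ to 3′ on the gene's strand. Capitals mark the GC box GGGCGG or its reverse complement CCGCCC, which may overlap each other.
ALDH1A3 (chr15:100879581-100879830, plus strand): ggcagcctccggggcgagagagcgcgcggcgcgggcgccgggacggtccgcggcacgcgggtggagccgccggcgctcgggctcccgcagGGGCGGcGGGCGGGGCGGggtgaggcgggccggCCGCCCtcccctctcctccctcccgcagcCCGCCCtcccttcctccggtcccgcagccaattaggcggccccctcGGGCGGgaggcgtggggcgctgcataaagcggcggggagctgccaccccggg
ALDH1A1 (chr9:72953054-72953303, minus strand): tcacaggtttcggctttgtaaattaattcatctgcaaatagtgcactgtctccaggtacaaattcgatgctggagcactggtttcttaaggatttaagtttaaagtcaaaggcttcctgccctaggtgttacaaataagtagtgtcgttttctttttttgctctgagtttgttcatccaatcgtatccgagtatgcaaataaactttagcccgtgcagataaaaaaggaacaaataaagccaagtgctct
CD44 (chr11:35138921-35139170, plus strand): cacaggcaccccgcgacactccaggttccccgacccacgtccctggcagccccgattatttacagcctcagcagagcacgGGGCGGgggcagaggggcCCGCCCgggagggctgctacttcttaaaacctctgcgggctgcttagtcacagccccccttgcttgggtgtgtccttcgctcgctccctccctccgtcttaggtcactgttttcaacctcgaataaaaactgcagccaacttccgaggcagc
The ALDH1A3 window held 38 CpG dinucleotides, 82.4% G or C and 6 GC boxes. The ALDH1A1 window held 6 CpG, 38.4% G or C and no GC box, and the CD44 window held 15 CpG, 62.4% G or C and 2 GC boxes. The 4 windows annotated for PROM1 held between 5 and 26 CpG. Over all 35116 windows of this length the median was 11 CpG, 42.6% held a GC box, and 3.28% had at least as many CpG as ALDH1A3.

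**Figure D1:**
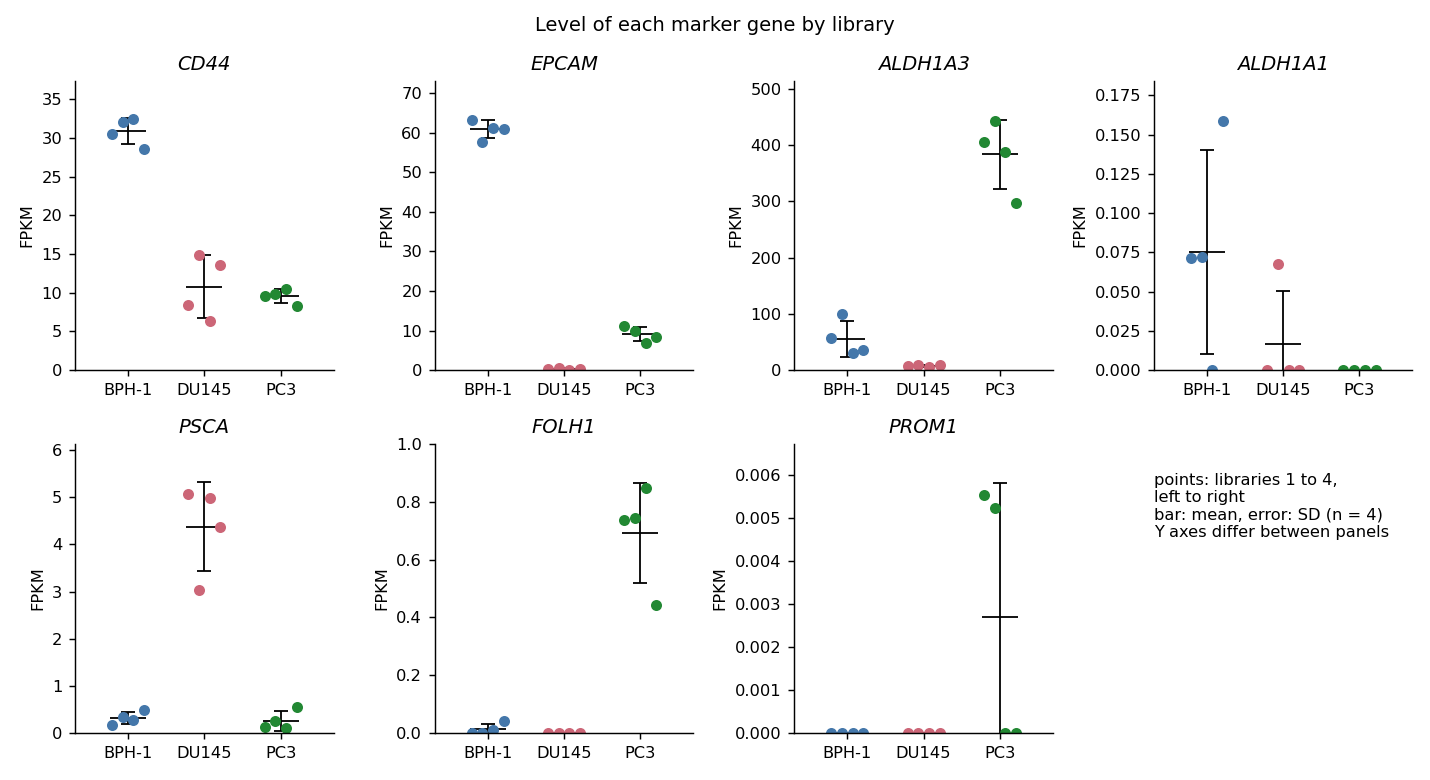
FPKM of each marker gene in each library, by line (points: libraries 1 to 4 from left to right; bar and error: mean and SD, n = 4; the Y axes differ between panels). CD44 and EPCAM were highest in BPH-1, ALDH1A3 and FOLH1 in PC3, and PSCA in DU145, while ALDH1A1 and PROM1 reached at most 0.159 FPKM.

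CD44, the hyaluronan receptor on chromosome 11 (35138870 to 35232402, plus strand), was lower in both PCa lines than in BPH-1. The 4 BPH-1 libraries had 30.5, 32.0, 32.5 and 28.6 FPKM (mean 30.9 ± 1.74 SD). DU145 had 8.37, 14.9, 6.30 and 13.6 FPKM (10.8 ± 4.12), and PC3 had 9.55, 9.88, 10.5 and 8.35 FPKM (9.58 ± 0.918). Every BPH-1 library lay above every DU145 and PC3 library, whereas the DU145 libraries enclosed those of PC3. The log2 fold change was -1.59 for PC3 against BPH-1 (SE 0.10, limma with Benjamini-Hochberg adjusted p = 1.30e-06), a ratio of means of 3.23. For DU145 against BPH-1 it was -1.50 (SE 0.24, limma with Benjamini-Hochberg adjusted p = 4.55e-04), a ratio of 2.86. PC3 and DU145 did not differ detectably (-0.09, 95% confidence interval -0.65 to 0.47, limma with Benjamini-Hochberg adjusted p = 0.792). DU145 was the variable line, its highest library 2.36 times its lowest, against 1.13 times in BPH-1 and 1.26 times in PC3. After each library's trend with gene GC content was divided out, that ratio in DU145 was 1.77 (mean 9.23 ± 2.50 FPKM).

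EPCAM, on chromosome 2 (47345158 to 47387601, plus strand), had the largest fold change of the 4 markers tested in DU145 against BPH-1. BPH-1 libraries had 63.2, 57.7, 61.3 and 61.0 FPKM (60.8 ± 2.28). DU145 libraries had 0.418, 0.573, 0.166 and 0.348 FPKM (0.376 ± 0.168), which rest on 11 to 40 reads. PC3 libraries had 11.1, 9.86, 6.92 and 8.51 FPKM (9.10 ± 1.81). The lines did not overlap and ran BPH-1, PC3, DU145 from high to low. The log2 fold change was -2.63 in PC3 against BPH-1 (SE 0.13, limma with Benjamini-Hochberg adjusted p = 3.23e-07; ratio of means 6.68). It was -5.50 in DU145 against BPH-1 (SE 0.15, limma with Benjamini-Hochberg adjusted p = 2.29e-08; ratio 162). For PC3 against DU145 it was 2.87 (SE 0.18, limma with Benjamini-Hochberg adjusted p = 2.87e-06; ratio 24.2). By level EPCAM ranked 276 to 304 among 19817 protein-coding genes in BPH-1 libraries and 10891 to 11930 in DU145 libraries.

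ALDH1A3, the retinal dehydrogenase on chromosome 15 (100877714 to 100916626, plus strand), moved in opposite directions in the PCa lines. BPH-1 libraries had 57.5, 100.3, 29.8 and 35.5 FPKM (55.7 ± 32.0), and DU145 libraries had 7.47, 8.57, 5.99 and 9.56 FPKM (7.90 ± 1.53). PC3 libraries had 405, 443, 388 and 298 FPKM (384 ± 61.7). No line overlapped another, though BPH-1 libraries differed 3.37-fold among themselves. The log2 fold change was 2.91 for PC3 against BPH-1 (SE 0.33, limma with Benjamini-Hochberg adjusted p = 4.94e-05; ratio of means 6.88) and -2.53 for DU145 against BPH-1 (SE 0.34, limma with Benjamini-Hochberg adjusted p = 1.37e-04; ratio 7.06). It was 5.44 for PC3 against DU145 (SE 0.18, limma with Benjamini-Hochberg adjusted p = 8.64e-08; ratio 48.6). In PC3 libraries ALDH1A3 ranked 27 to 47 among 19817 protein-coding genes. The antisense gene AC015712.2 overlaps it and had means of 0.501 to 0.633 FPKM. No source used here says whether strand was used in counting, so reads of the overlap cannot be told apart.

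ALDH1A1, the related retinal dehydrogenase on chromosome 9 (72900662 to 73080442, minus strand), was at or near the limit of detection. BPH-1 libraries held 4, 4, 0 and 9 reads, DU145 libraries 0, 4, 0 and 0, and all PC3 libraries 0. The BPH-1 mean was 0.0755 ± 0.0649 FPKM. A library at 0 allows up to 3 reads, a limit that covers counting error only, so no fold is given. The gene did not pass the filter for limma, and its exact permutation p was 0.143 for each PCa line against BPH-1.

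Among the 19 aldehyde dehydrogenase genes, ALDH1A3 made up 32.3% ± 11.6 (SD) of the summed FPKM in BPH-1, 5.82% ± 1.69 in DU145 and 81.8% ± 3.40 in PC3. The highest of them in DU145 was ALDH1B1, a mitochondrial enzyme, at a mean of 51.0 FPKM, against 27.5 in BPH-1 and 14.3 in PC3. Of the 17 genes other than ALDH1A1 and ALDH1A3, 13 were tested in each comparison. Calls were 4 higher and 5 lower in PC3 against BPH-1, 5 higher and 3 lower in DU145 against BPH-1, and 2 higher and 5 lower in PC3 against DU145. The first of these turned to 5 higher and 4 lower after upper-quartile scaling and was 3 and 7 at the same summed FPKM. The second was 6 and 1 after upper-quartile scaling. As deposited, the called share of the tested genes was 69.2%, 61.5% and 53.8% in the same order, against 67.6%, 62.6% and 48.2% over all genes. ALDH2, the mitochondrial acetaldehyde enzyme, had means of 3.38 FPKM in BPH-1, 6.89 in DU145 and 0.0422 in PC3, and fell in PC3 against both (limma with Benjamini-Hochberg adjusted p = 2.45e-05 and 6.89e-06). ALDH16A1 had means of 3.39, 3.18 and 0.00452 FPKM in that order. ALDH3B1 rose from 0.676 FPKM in BPH-1 to 5.92 in DU145 (log2 fold change 2.02, limma with Benjamini-Hochberg adjusted p = 4.06e-05), and ALDH1L2 had 0.551 and 3.81 FPKM in these lines.

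**Figure D2:**
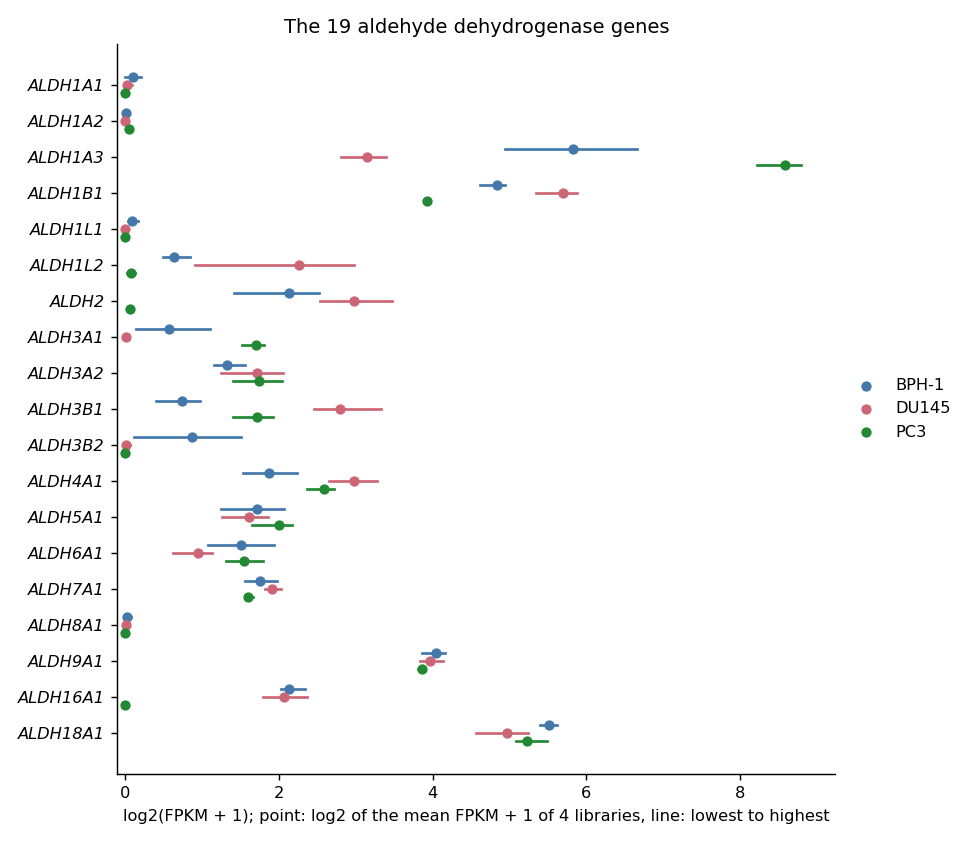
Level of the 19 aldehyde dehydrogenase genes by line on the log2(FPKM + 1) scale (point: log2 of the mean FPKM of 4 libraries plus 1; line: lowest to highest library). ALDH1A3 stands alone at the right in PC3, where it made up 81.8% of the summed FPKM, and ALDH1B1 is the highest in DU145.

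Of 21 genes for retinoid enzymes, carriers and receptors, 15 were tested against BPH-1. In PC3 7 were higher and 6 lower, and in DU145 3 were higher and 6 lower. With the GC trend divided out these counts were 6 and 7 in PC3 and 2 and 8 in DU145. As deposited, 86.7% of those tested were called in PC3 and 60% in DU145, against 67.6% and 62.6% over all genes. TGM2, a transglutaminase that retinoic acid induces, rose from 0.234 FPKM in BPH-1 to 15.6 in PC3 (log2 fold change 3.73, limma with Benjamini-Hochberg adjusted p = 7.03e-08) and to 26.6 in DU145 (4.48, limma with Benjamini-Hochberg adjusted p = 3.70e-08). Other genes of the list were lower in both PCa lines. RARRES3 had 2.02 FPKM in BPH-1, 0.577 in DU145 and 0.0788 in PC3 (0 to 4 reads). STRA6 had 0.763, 0.0217 and 0.00430 FPKM in that order (0 to 2 reads in PC3). Whether the response to retinoic acid differed between the lines was not tested. Between the PCa lines 5 of 13 were higher and 3 lower in PC3 (5 and 5 with the GC trend divided out). As deposited, 61.5% were called there, against 48.2% over all genes. RDH10, which makes retinal from retinol, had 13.0 FPKM in PC3 and 2.32 in DU145 (log2 fold change 2.04, limma with Benjamini-Hochberg adjusted p = 9.88e-05). CYP26B1, which degrades retinoic acid, had 0.412 and 3.16 FPKM (-1.49, limma with Benjamini-Hochberg adjusted p = 7.29e-04).

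PROM1, on chromosome 4 (15963076 to 16084378, minus strand), was not detected above the limit of 3 reads in any library. It had 0 reads in all BPH-1 and DU145 libraries and in PC3 libraries 3 and 4, and 1 read in each of PC3 libraries 1 and 2. It did not pass the filter for limma, and its exact permutation p was 0.429 for PC3 against either other line. Its paralog PROM2 had means of 4.40 FPKM in BPH-1, 0.0903 in DU145 and 0.0881 in PC3, and was lower in both PCa lines (log2 fold change -2.28 in each, limma with Benjamini-Hochberg adjusted p = 3.10e-06 for PC3 and 4.90e-06 for DU145).

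PSCA, on chromosome 8 (142670308 to 142682724, plus strand), was high only in DU145 among these lines. BPH-1 libraries had 0.170, 0.344, 0.275 and 0.483 FPKM (0.318 ± 0.131; 8 to 23 reads). DU145 libraries had 5.08, 3.04, 4.99 and 4.38 FPKM (4.37 ± 0.944; 151 to 251 reads), and PC3 libraries 0.127, 0.263, 0.0946 and 0.557 FPKM (0.260 ± 0.211; 4 to 22 reads). DU145 lay above both other lines without overlap, and BPH-1 and PC3 overlapped. The log2 fold change was 2.01 for DU145 against BPH-1 (SE 0.17, limma with Benjamini-Hochberg adjusted p = 6.38e-06; ratio of means 13.7) and -2.09 for PC3 against DU145 (SE 0.18, limma with Benjamini-Hochberg adjusted p = 1.95e-05; ratio 16.8, or 27.1 without PC3 library 4). PC3 and BPH-1 did not differ detectably (-0.07, 95% confidence interval -0.33 to 0.19, limma with Benjamini-Hochberg adjusted p = 0.591). PSCA passed the filter of the DU145 comparisons through its DU145 libraries. It overlaps JRK on the other strand, whose means were 0.395 to 0.537 FPKM, and reads of the overlap cannot be told apart.

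FOLH1, on chromosome 11 (49146635 to 49208670, minus strand), was detected mainly in PC3, at a low level. PC3 libraries had 0.737, 0.744, 0.848 and 0.444 FPKM (0.693 ± 0.174), from 73, 78, 90 and 44 reads. BPH-1 libraries held 0, 0, 1 and 5 reads and all DU145 libraries 0. No PC3 library overlapped the other lines. The log2 fold change was 0.74 for PC3 against BPH-1 (SE 0.07, limma with Benjamini-Hochberg adjusted p = 2.13e-05), and the ratio of means was 55.1 with a counting interval of 24.9 to 151 from the pooled reads. Of the 6 BPH-1 reads, 5 were in library 4, and without that library the ratio was 247. Against DU145 it was 0.75 (SE 0.08, limma with Benjamini-Hochberg adjusted p = 4.87e-05), at least 26.9-fold higher in PC3 at the floor of 3 reads per library. FOLH1 passed the filter through its PC3 libraries, and limma did not test it between DU145 and BPH-1 (exact permutation p = 0.429). Its near-identical copy FOLH1B had 0 reads in BPH-1 and DU145 and a mean of 0.420 FPKM in PC3 (14 to 20 reads), so the split of reads between them is uncertain.

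**Figure D3:**
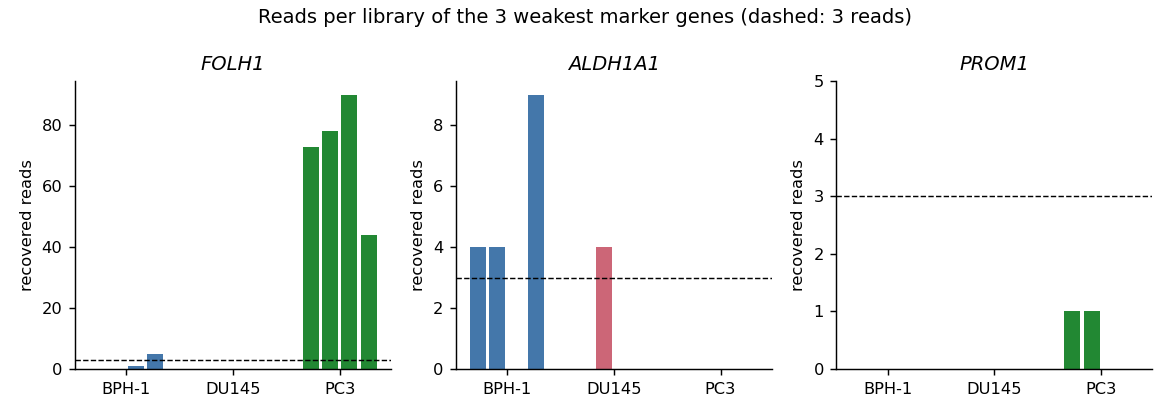
Recovered reads of FOLH1, ALDH1A1 and PROM1 in each library, with libraries 1 to 4 of a line from left to right (dashed line: 3 reads). FOLH1 reached 44 to 90 reads in PC3 libraries, while ALDH1A1 reached at most 9 reads and PROM1 at most 1.

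Set side by side, CD44 and EPCAM were called lower and ALDH1A3 higher in PC3 against BPH-1, where 67.6% of all 16346 genes tested were called, 27.2% higher and 40.5% lower. CD44, EPCAM and ALDH1A3 were called lower in DU145 against BPH-1, where 62.6% of 17072 genes were called, 30.3% higher and 32.3% lower. EPCAM and ALDH1A3 were called higher in PC3 against DU145, where 48.2% of 16209 genes were called, 20% higher and 28.3% lower. FOLH1 in the PC3 comparisons and PSCA in the DU145 comparisons were called too. FOLH1 passed the filter only through the line in which it is high and so had to differ. PSCA relied on its DU145 libraries to pass there, which favours a difference without forcing one. Its BPH-1 libraries held 8 to 23 reads and its PC3 libraries 4 to 22. The called markers were also those whose libraries did not overlap, which held for 64.5%, 59.4% and 46.5% of all genes tested in the same order. The first pair of comparisons shares the BPH-1 libraries, and each PCa line enters 2 comparisons. In the exact permutation test of mean FPKM (two-sided, 70 splits), 12 of the 21 differences reached the smallest possible p of 0.0286. After the planned Benjamini-Hochberg adjustment over the 21 values these exact permutation p-values were 0.05, and 0 of 21 were under 0.05.

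**Figure D4:**
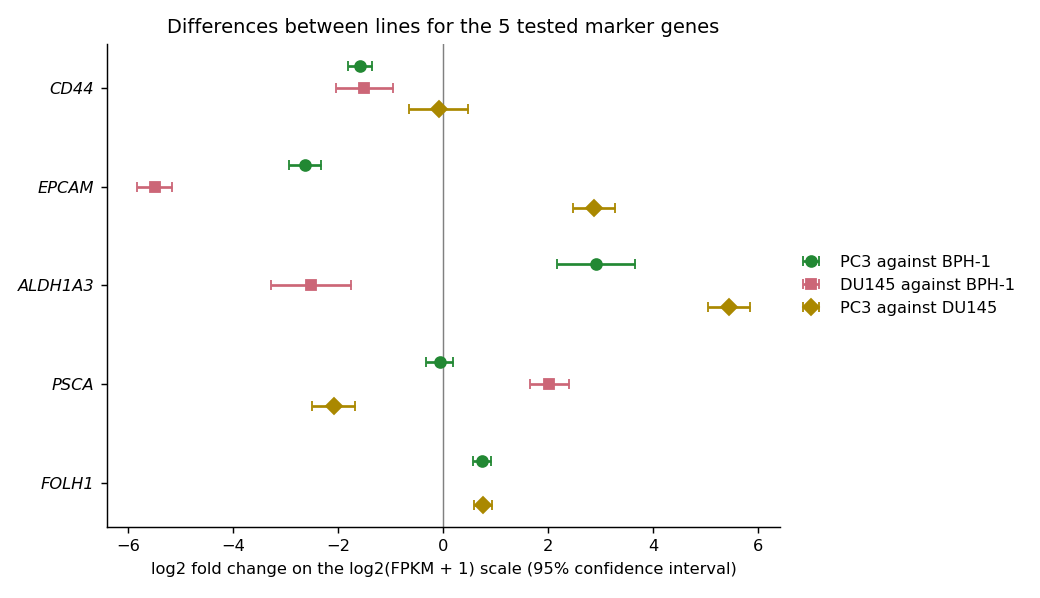
Log2 fold changes of the 5 tested markers on the log2(FPKM + 1) scale, with 95% confidence intervals, for the 3 comparisons of lines (no value for FOLH1 in DU145 against BPH-1). ALDH1A3 lies on opposite sides of 0 in PC3 and DU145 against BPH-1, at 2.91 and -2.53, and the intervals of CD44 in PC3 against DU145 and of PSCA in PC3 against BPH-1 include 0.

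The order of the markers within a line also differed. In BPH-1 it was EPCAM, ALDH1A3 and CD44, whose libraries did not separate ALDH1A3 from the other two, followed by PSCA. In DU145 CD44 and ALDH1A3 overlapped at the top, then came PSCA and EPCAM. In PC3 ALDH1A3 stood first, CD44 and EPCAM overlapped, and FOLH1 and PSCA overlapped below them. The length behind the deposited values counts each distinct exon, overlapping ones included. With merged exons the BPH-1 means were 103 FPKM for EPCAM, 66.1 for CD44 and 65.3 for ALDH1A3, so the order of CD44 and ALDH1A3 there rests on the length used. In DU145 CD44 then ran from 13.5 to 31.8 FPKM and ALDH1A3 from 7.02 to 11.2, so their overlap rests on the length too. PSCA in DU145 then ran from 5.25 to 8.79 FPKM and overlapped ALDH1A3, so its place below ALDH1A3 rests on the length as well.

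EPCAM was compared with its partners and proteases. Of 12 such genes, all tested in PC3 against BPH-1, 4 were higher and 5 lower. In DU145 2 of 11 were higher and 5 lower, and between the PCa lines 7 of 11 were higher in PC3 and 1 lower. Shares called were 75%, 63.6% and 72.7% in this order, against 67.6%, 62.6% and 48.2% over all genes. CDH1, the E-cadherin of epithelial junctions, had 28.4 FPKM in BPH-1, 0.180 in DU145 and 0.786 in PC3 (log2 fold change -3.98 and -4.55 for PC3 and DU145 against BPH-1, limma with Benjamini-Hochberg adjusted p = 2.77e-06 and 8.85e-07).

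**Figure D5:**
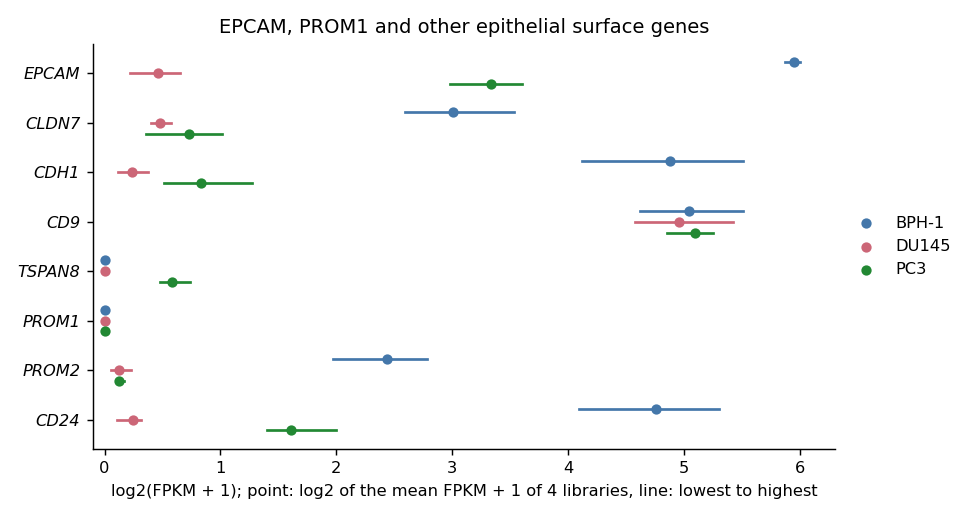
Levels of EPCAM, PROM1, its paralog PROM2, and other epithelial surface genes by line on the log2(FPKM + 1) scale (point: log2 of the mean FPKM of 4 libraries plus 1; line: lowest to highest library). EPCAM and CDH1 lie further right in BPH-1 than in DU145 and PC3, and PROM1 lies at 0 in every line to within 1 read.

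CD44 was compared with hyaluronan enzymes and its partners. Of 15 tested in DU145 against BPH-1, 0 were higher and 11 lower by limma (after upper-quartile scaling 1 was higher and 9 lower), and in PC3 5 were higher and 7 lower (6 and 6 after that scaling, 3 and 9 at the same summed FPKM or with the GC trend divided out). HAS3, a hyaluronan synthase, had 5.16 FPKM in BPH-1, 1.96 in DU145 and 105 in PC3 (log2 fold change 4.20 for PC3 against BPH-1, limma with Benjamini-Hochberg adjusted p = 3.75e-06). ESRP1, which sets the splicing of CD44 towards its variant exons, had 11.9 FPKM in BPH-1, 0.383 in DU145 and 0.0506 in PC3 (-3.22 and -3.61 for DU145 and PC3 against BPH-1, limma with Benjamini-Hochberg adjusted p = 4.22e-07 and 2.30e-08). ESRP2 of the same list had 8.61 FPKM in BPH-1, 1.26 in DU145 and 6.89 in PC3. It was not called in PC3 against BPH-1 (log2 fold change -0.29, limma with Benjamini-Hochberg adjusted p = 0.0814). HMMR, another hyaluronan receptor, had means of 22.9 FPKM in BPH-1 and 2.08 in PC3 and a range of 0.854 to 3.11 in DU145. Between the PCa lines 7 of 16 genes were higher in PC3 and 1 lower. Called shares were 73.3% in DU145 and 80% in PC3 against BPH-1, and 50% between the PCa lines. Over all genes they were 62.6%, 67.6% and 48.2%. MMP14, a membrane protease that cleaves CD44, had 60.1 FPKM in PC3 and 11.9 in DU145 (log2 fold change 2.26, limma with Benjamini-Hochberg adjusted p = 2.58e-05).

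Of 20 other stem and progenitor markers, 17 were tested against BPH-1. In PC3 2 were higher and 12 lower, with a median log2 fold change of -1.72 against -0.13 over all genes. In DU145 1 was higher and 10 lower, with a median of -2.28 against -0.03. Called shares were 82.4% in PC3 and 64.7% in DU145 against BPH-1, and 66.7% in PC3 against DU145. Over all genes they were 67.6%, 62.6% and 48.2%. The basal keratins led the falls: KRT14 had 203 FPKM in BPH-1, 0.185 in DU145 and 0.00662 in PC3, and KRT5 had 147, 0.216 and 0.0118 FPKM. SOX9, a transcription factor of progenitor cells, was higher in PC3 (50.7 FPKM) than in DU145 (5.42; log2 fold change 3.01, limma with Benjamini-Hochberg adjusted p = 6.60e-07), where 5 of 12 tested were higher and 3 lower.

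PSCA was set beside 16 other genes of the LY6 and uPAR family, of which 11 were tested against BPH-1. In PC3 2 were higher and 7 lower, and in DU145 2 were higher and 6 lower. With the GC trend divided out these counts were 1 and 7 in PC3 and 0 and 6 in DU145 by limma. After upper-quartile scaling they were 3 and 6 in PC3 and 2 and 5 in DU145. Called shares were 81.8% in PC3 and 72.7% in DU145 against BPH-1, and 75% in PC3 against DU145. Over all genes they were 67.6%, 62.6% and 48.2%. Between the PCa lines 2 of 8 were higher in PC3 and 4 lower, which median-of-ratios and upper-quartile scaling turned to 3 and 3. LY6K, the nearest tested gene above PSCA on the chromosome, had 9.11 FPKM in BPH-1, 18.3 in DU145 and 0.166 in PC3 (log2 fold change -3.97 for PC3 against DU145, limma with Benjamini-Hochberg adjusted p = 3.86e-06). LYPD3 had 11.2, 0.171 and 4.01 FPKM. LY6D had 2.30 FPKM in BPH-1 and 0 reads in DU145 and PC3, at least 41.4-fold and 36.3-fold lower.

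FOLH1 was set beside 11 genes of folate uptake and related carboxypeptidases. Of 6 tested in PC3 against BPH-1, 2 were higher and 1 lower, and of 5 in DU145 3 were higher and 0 lower by limma. In PC3 against DU145 1 of 6 was higher and 2 lower. Shares called were 50%, 60% and 50% in this order, against 67.6%, 62.6% and 48.2% over all genes. SLC19A1, the reduced folate carrier, had 2.14 FPKM in BPH-1, 7.92 in DU145 and 5.91 in PC3 (log2 fold change 1.47 and 1.15 for DU145 and PC3 against BPH-1, limma with Benjamini-Hochberg adjusted p = 3.09e-04 and 4.21e-05). SLC46A1, the proton-coupled folate transporter, had 1.89, 4.54 and 1.68 FPKM. Of 12 other prostate surface antigens, 9 were tested in PC3 against BPH-1 (3 higher, 3 lower; 3 and 2 after upper-quartile scaling) and 10 in DU145 against BPH-1 (3 higher, 4 lower) and in PC3 against DU145 (5 higher, 1 lower). TMPRSS2 had 0.137 FPKM in BPH-1, 0.00532 in DU145 and 2.38 in PC3, and STEAP1 had 5.30, 1.05 and 5.58. Of the tested antigens 66.7% were called in PC3 and 70% in DU145 against BPH-1, and 60% in PC3 against DU145. Over all genes these shares were 67.6%, 62.6% and 48.2%.

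The genes whose profile over the 12 libraries was most like each tested marker were found by the root mean square difference of centred log2(FPKM + 1), among 11428 protein-coding genes. For CD44 they were WEE1 (0.12), GAS2L3 (0.12) and VRK2 (0.14), and 166 genes lay within 2 times the smallest difference. For ALDH1A3 they were COL5A2 (0.29), LXN (0.42) and CDH2 (0.43). For EPCAM they were SERPINB5 (0.46), FN1 (0.52) and HMGB2 (0.54), for PSCA ABL1 (0.14), FAM155B (0.14) and MARCHF3 (0.16), and for FOLH1 CHRM3 (0.06), PDE10A (0.09) and STK36 (0.10). The libraries of a line share much of any such profile.

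The nearest tested genes on the chromosome did not all follow the markers. LRRK1, 2589 bases beside ALDH1A3, had 3.09 FPKM in BPH-1, 1.73 in DU145 and 1.71 in PC3, with PC3 and DU145 not differing detectably (log2 fold change -0.0030, limma with Benjamini-Hochberg adjusted p = 0.987) where ALDH1A3 differed 48.6-fold. PDHX, beside CD44, had 9.30, 1.92 and 2.62 FPKM in the same order. Beside the markers that did not pass the filter, ANXA1 near ALDH1A1 had 80.9, 28.7 and 4.98 FPKM, and FGFBP1 near PROM1 had 46.8, 1.15 and 52.8.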

How the data were processed

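Total RNA of the 12 libraries had been sequenced by the submitters. The authors deposited normalized values of 58302 genes whose form is that of FPKM, although the file header names no unit. HISAT2 2.1.0, CASAVA 1.8 and edgeR (without a version) are named in the submitters' processing notes, with GRCh38. The counting program, the use of strand and any filter are not given in the sources used here. Reads were recovered from the steps of the values with exon lengths of GENCODE 29: 96.2% to 97.0% of low values were whole to within 0.02 reads. Lengths of CD44 (21389 bases) and FOLH1 (7649) were taken from the steps, because the annotated ones gave no whole reads; 263 genes had no length and were left out. Depth was 12950665 to 16309560 reads per library.

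Each comparison was fitted on log2(FPKM + 1) of its 2 lines alone, using limma 3.58.1 (R 4.3.3) with a variance trend over mean level. Genes needed 10 reads at the median depth in at least 4 libraries and 15 in all. The Benjamini-Hochberg adjusted p had to be under 0.05. Exact permutation tests were two-sided, with Benjamini-Hochberg adjustment over 21 values as planned. A count of unadjusted exact p-values was added after the adjusted ones had been seen to equal 0.05. Scripts used Python 3.11.15, numpy 2.4.6, pandas 2.3.3, scipy 1.17.1 and matplotlib 3.10.9, and were tested on simulated data. Alternatives were other filters, pseudocounts, scalings, a GC correction (a spline with 5 degrees of freedom), voom, a fit of all libraries, a replicate block and leaving out each library.

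The members and the 8 gene lists were chosen with earlier results of these data known. Genes named beside the members were their paralogs, their nearest tested neighbours, the 3 closest profiles (100 or more reads in at least 4 libraries), and in each list and comparison the 2 called genes with the largest fold change whose lines did not overlap. ALDH1B1, RARRES3, STRA6, ESRP2, the cell type markers and overlapping genes were named outside that rule. Results of some genes under these rules are not reported here.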

Additional observations from a re-analysis of the deposited data

Results flagged for a closer look

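ALDH1A1 in DU145 replicate 2 stood apart from the other libraries of its line, at 0.0674 FPKM (4 reads) against 0 reads in the other 3. With 3 libraries at 0, any reads in the fourth make it stand apart, so the usual chance rate of about 1 in 20 groups does not apply. None of the other 16 groups with any spread held such a library.

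For ALDH1A3 and EPCAM the change from BPH-1 differed between the PCa lines. This was tested by limma for PC3 against DU145, with Benjamini-Hochberg adjusted p-values given in the report. The log2 difference was 5.44 for ALDH1A3 and 2.87 for EPCAM. PSCA (-2.09) and FOLH1 (0.75) were flagged too. Both passed the filter of this comparison through the line in which they are high. FOLH1, at 0 reads in DU145, therefore had to differ. For PSCA, with 4 to 22 reads in PC3 libraries, the filter favours a difference without forcing one. FOLH1 was not tested by limma in DU145 against BPH-1, so its change there is not known.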

How the results depend on the processing

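Called markers stayed at 3 or 4 in PC3 against BPH-1 and DU145 against BPH-1 under every alternative run. In PC3 against DU145 they fell from 4 to 2 with the stricter filter (10 reads in every library), which removes FOLH1 and PSCA by construction. In the exact permutation tests 0 of 21 values were under 0.05 after the planned adjustment, and 0 with differences of mean log2(FPKM + 1). Counted without adjustment, a choice made after those values were seen, 12 were. Signs turned only for differences that were not called. PSCA in PC3 against BPH-1 was 0.029 with upper-quartile scaling. CD44 in PC3 against DU145 was 0.0044 with median-of-ratios scaling and 0.017 with upper-quartile scaling, and ranged from -0.30 to 0.077 when 1 library was left out, above 0 without DU145 replicate 2 (0.077) or 4 (0.037). The causes were not tested. The other 242 values of single markers kept their sign and side of the threshold. voom on the recovered reads called 10931 genes in PC3 and 10560 in DU145 against BPH-1, and 7677 between the PCa lines. Depth limits ALDH1A1 and PROM1, which did not pass the filter for limma.

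Same-numbered libraries did not pair: the correlation of their deviations over 9235 genes ran from -0.77 to 0.61 and was over 0.1 in 3 of 12 pairs, and not every library correlated best with its own number. With the replicate number as a block, 4 markers were called in each comparison, as without it, and 6654 genes were called in PC3 against DU145 in place of 7820.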

Other observations

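Some libraries deviated together across the PCa lines, mostly with different replicate numbers. DU145 replicates 2 and 4 correlated with PC3 replicates 1 and 2 (r between 0.55 and 0.64 over 9235 genes, which are not independent replicates), and DU145 replicates 1 and 3 with PC3 replicate 4 (r = 0.73 and 0.80). The DU145 libraries with the higher CD44 level, 14.9 and 13.6 FPKM against 8.37 and 6.30, were replicates 2 and 4.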
